A study of Mus musculus with 16 samples.

Results

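Cardiac myosin chains and Mhrt were described here as 8 genes, taken by symbol from the 48709 genes of the count table after its Ensembl identifiers were matched without their version. They were the heavy chain genes Myh6, Myh7 and Myh7b, the light chain genes Myl2, Myl3, Myl4 and Myl7, and Mhrt, an RNA gene on the strand opposite to Myh7. All 8 were found, and each was followed over all 16 libraries by tissue and genotype. The members were selected on their counts in knockout and wild type hearts, where Myh7 and Mhrt stand out, so their values in that comparison are given as a description, with no p-value.

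The study compared Msr quadruple knockout mice (QKO) with wild type mice (WT). The Msr genes encode methionine sulfoxide reductases, which return oxidised methionine in proteins to methionine. The groups were QKO heart, WT heart, QKO liver and WT liver, with 4 libraries each, and heart and liver came from the same 8 animals. All animals were untreated C57BL/6J females of 3 to 6 months, and frozen pieces of each organ gave total RNA that was depleted of ribosomal RNA before stranded sequencing. The labels give the knockout as a whole-animal genotype with no driver or inducing agent, and do not say whether the animals were littermates or how each heart was divided.

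A heart muscle myosin molecule is made of a pair of heavy chains, which carry the motor, and of essential and regulatory light chains, which bind its neck. Adult mouse ventricle runs mostly on the fast alpha heavy chain of Myh6, while the slow beta chain of Myh7 prevails before birth and returns in hypothyroid or overloaded hearts, and thyroid hormone pushes the pair in opposite directions. Mhrt is a heart RNA known in the mouse to hold back the chromatin remodeller Brg1 (Smarca4), and introns of Myh6, Myh7 and Myh7b carry the microRNA genes Mir208a, Mir208b and Mir499.

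On the mouse assembly GRCm38, Myh6 (ENSMUSG00000040752.15) lies at chr14:54941921-54966927 on the minus strand and Myh7 (ENSMUSG00000053093.15) at chr14:54970684-54994626 on the same strand, 3756 bases further on. Mhrt (ENSMUSG00000097652.2, chr14:54968678-54974349) is on the plus strand, with its first 2006 bases in the gap between the heavy chain genes and its last 3666 bases inside Myh7. Of the 1214 exon bases of Mhrt, 484 (39.9%) are also exon bases of Myh7. The other members lie apart from this pair: Myh7b at chr2:155611212-155634307, Myl2 at chr5:122100951-122113472, Myl3 at chr9:110741861-110769798, Myl4 at chr11:104550663-104595753 and Myl7 at chr11:5896637-5898782.

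The mature microRNAs of the 3 intron genes are shown because they tie each heavy chain gene to a small RNA. Counts given further on are of their hairpin genes and not of these mature forms. Sequences are from RefSeq (GRCm38.p6), and capitals mark the seed, bases 2 to 8.
mmu-miR-208a-3p: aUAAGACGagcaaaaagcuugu
mmu-miR-208b-3p: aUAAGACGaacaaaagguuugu
mmu-miR-499-5p: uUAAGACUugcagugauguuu
The microRNAs of Myh6 and Myh7 share their seed and 19 of 22 bases, and no other of the 1679 mature mouse microRNAs in the table has that seed. The microRNA of Myh7b matches 6 of the 7 seed bases.

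The 300 bases around the start sites of Myh7, Mhrt and Myh6 are shown because Myh7 and Mhrt stood far apart between the genotypes while their neighbour Myh6 did so much less (RefSeq, GRCm38.p6, 250 bases before to 50 after the start, printed 5′ to 3′ on the gene's own strand). Capitals mark the MCAT motif CATTCC, the letters that TEAD factors bind, on either strand, the GATA motif, meaning AGATAA or likewise AGATAG, and equally TGATAA or likewise TGATAG, on either strand, and TATAAA on the gene's strand.
Myh7, chr14:54994577-54994876, minus strand: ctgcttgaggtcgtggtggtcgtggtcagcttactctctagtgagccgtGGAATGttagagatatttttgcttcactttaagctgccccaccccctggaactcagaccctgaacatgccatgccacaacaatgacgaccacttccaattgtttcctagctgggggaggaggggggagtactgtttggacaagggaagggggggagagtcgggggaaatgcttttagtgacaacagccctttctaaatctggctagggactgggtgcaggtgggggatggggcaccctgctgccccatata
Mhrt, chr14:54968537-54968836, plus strand: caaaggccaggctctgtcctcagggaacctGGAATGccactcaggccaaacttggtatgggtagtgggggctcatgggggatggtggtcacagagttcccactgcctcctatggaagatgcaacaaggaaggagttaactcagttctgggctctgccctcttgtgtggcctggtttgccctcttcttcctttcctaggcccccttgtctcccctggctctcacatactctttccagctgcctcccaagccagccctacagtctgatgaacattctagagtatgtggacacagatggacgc
Myh6, chr14:54966558-54966857, minus strand: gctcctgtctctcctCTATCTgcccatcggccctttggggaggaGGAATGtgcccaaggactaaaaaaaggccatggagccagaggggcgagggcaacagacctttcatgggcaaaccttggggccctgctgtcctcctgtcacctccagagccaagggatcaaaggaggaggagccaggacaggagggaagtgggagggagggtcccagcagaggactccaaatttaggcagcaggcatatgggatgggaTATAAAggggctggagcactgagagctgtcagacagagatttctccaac
Each of the 3 windows held an MCAT motif, at base -201 of Myh7, -220 of Mhrt and -206 of Myh6, and no match overlapped another. The window of another listed Myh7 start site, chr14:54994500-54994799, held none of the marked motifs. A GATA motif and TATAAA were found in the Myh6 window and in neither of the other windows shown. Among the first-listed windows of all 8 members, 5 held an MCAT motif and 5 a GATA motif, and of 27025 mouse promoter windows of this length 14.6% and 30.2% did. TATAAA stood in 1 of the 8 members' windows and in 8.88% of all windows.

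Libraries held 42.1 M to 72.6 M counts in heart and 37.9 M to 67.9 M in liver. Of the heart counts, 9.21 M to 28.1 M fell in protein-coding genes, and loci of nuclear ribosomal RNA 0.245% to 56.9%, with the low values in the hearts of animals 4. Of the targeted genes, Msrb2 averaged 0.118 ± 0.0363 CPM in QKO hearts and 9.48 ± 0.818 CPM in WT hearts, and Msrb3 5.76 ± 0.421 and 35.4 ± 1.15 CPM (SD, n = 4 each). Msra, at 5.24 ± 0.257 CPM in QKO hearts and 7.56 ± 0.547 CPM in WT hearts, fell less (log2 -0.52, SE 0.09, edgeR adjusted p = 0.0263), and Msrb1 was higher, with 15.4 ± 1.51 CPM in QKO hearts and 11.1 ± 0.712 CPM in WT hearts (log2 0.48, SE 0.08, adjusted p = 0.0337). Over the alternatives the adjusted p of Msra ran from 0.000711 to 0.123 and that of Msrb1 from 0.000507 to 0.996, each past the threshold in 9 of 18. Which exons the knockout alleles lack is not given in the sources used here, so these counts check the labels for Msrb2 and Msrb3 only. QKO liver 2 and, more so, WT liver 4 held skeletal muscle transcripts, with marker sums of 29.6 in QKO liver 2 and 449 in WT liver 4, per 1 M protein-coding counts, against 1.13 to 3.35 in the other 6 livers.

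In hearts the slow heavy chain gene and its antisense RNA stood well above WT in every QKO animal, the fast heavy chain gene stood slightly above, and the remaining members lay within the WT range or crossed it. Values are CPM, the counts of a gene per 1 M counts of its library, with library sizes adjusted by edgeR's TMM factors. Of 16974 genes tested in heart, 28 (0.165%) passed edgeR's quasi-likelihood test at an adjusted p of 0.05, and 2 of the 8 members were among them, Myh7 and Mhrt. Each of these was also called in 17 of 18 alternatives, and neither in the fit of all 16 libraries together. The ranges of the genotypes did not overlap for 3 of the 8 members, against 4.67% of all genes tested. Since this comparison chose the members, neither these counts nor the calls in the alternatives are evidence for them.

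Myh7, the slow beta heavy chain, had 552.7, 489.8, 490.4 and 497.1 CPM in QKO hearts 1 to 4, against 97.2, 122.9, 92.4 and 116.7 CPM in WT hearts 1 to 4. The lowest QKO heart was thus far above the highest WT heart, and QKO heart 1 stood above the other QKO hearts. The ratio of means was 4.74 in animals 1 and 2 of each genotype and 4.72 in animals 3 and 4, whose labels carry a separate run of animal numbers. Without the hearts of animals 4, which held little ribosomal RNA, it was 4.91. All of these hearts entered the choice of Myh7, so the likeness of these ratios is a description.

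Myh6, the fast alpha heavy chain and the major one in adult mouse ventricle, had 6517, 5850, 5665 and 5727 CPM in QKO hearts, against 5200, 4837, 4593 and 4500 CPM in WT hearts. Its groups did not overlap, but the step was small, with a ratio of means of 1.24 and a log2 difference of 0.31 (SE 0.11). The fast chain was thus not lower where the slow chain was higher. The sum of both heavy chains, per kb of exon, reached 1033, 927, 899 and 909 CPM per kb in QKO hearts, against 784, 733, 694 and 683 CPM per kb in WT hearts. Myh6 made up most of that sum in every heart.

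Myh7b, a low-level heavy chain gene that hosts Mir499, had 12.99, 16.1, 14.5 and 15.2 CPM in QKO hearts, against 13.9, 13.8, 15.9 and 15.5 CPM in WT hearts. Its groups overlapped almost completely, with a log2 difference of -0.01 (SE 0.08).

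**Figure D1:**
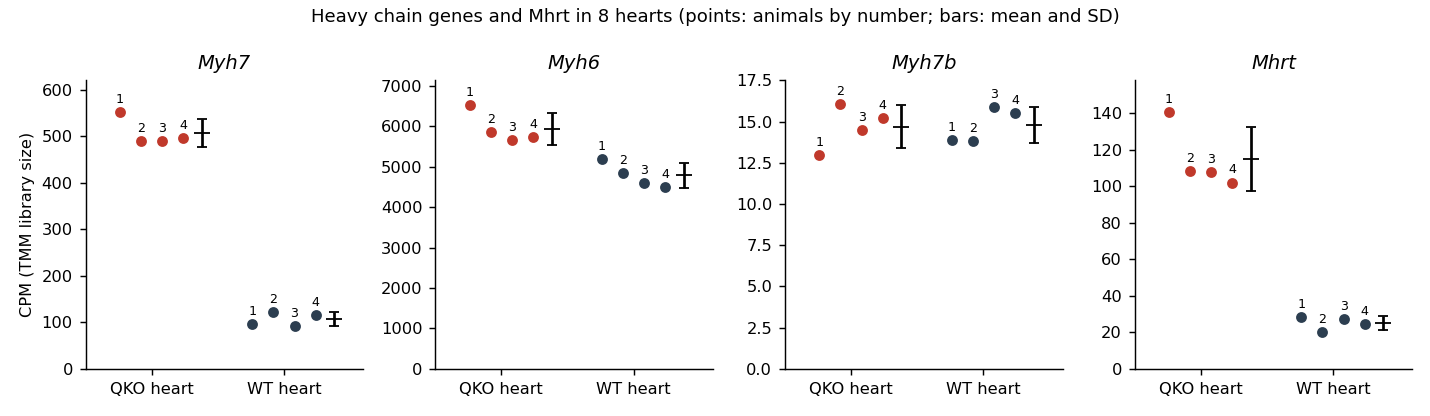
CPM of Myh7, Myh6, Myh7b and Mhrt in each heart (points, numbered by animal), QKO left and WT right in each panel, with the mean and SD of 4 animals as bars. Myh7 lies at 489.8 CPM or more in QKO hearts and at 122.9 CPM or less in WT hearts, and Myh7b overlaps.

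Mhrt had 140.5, 108.1, 108.0 and 102.0 CPM in QKO hearts, against 28.5, 20.2, 27.3 and 24.5 CPM in WT hearts. The groups did not overlap, and QKO heart 1 was again the highest. The ratio of means was 5.11 in animals 1 and 2 and 4.06 in animals 3 and 4.

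How far Mhrt counts were free of Myh7 reads was examined with genes that lie wholly within exons of a gene on the other strand. If counting had kept strands apart, such genes would take no reads from their host. In heart, 145 such genes had 100 or more counts expected from the density of the host, none was at 0 counts, and the median of observed over expected was 1.21 (quartiles 0.426 and 1.86). In liver the same median over 170 genes was 1.38. Opposite-strand genes thus carried counts at about the density of their hosts, so Mhrt counts have to be read as partly shared with Myh7.

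With the median ratio, shared reads were estimated as 26.8% to 33.2% of the Mhrt counts in QKO hearts and 23.0% to 41.5% in WT hearts. After these were taken off, Mhrt stood at 80.1 ± 15.5 CPM in QKO hearts and 17.8 ± 4.63 CPM in WT hearts (SD, n = 4), a ratio of 4.50. With the quartiles of the ratio in its place, the ratio of Mhrt was 4.55 and 4.44. Since Myh7 and Mhrt differ by nearly the same fold, taking off a fixed part of the Myh7 counts leaves a like ratio at any degree of sharing, so these ratios do not bear on how many reads are shared.

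Per 1000 Myh7 counts, Mhrt had 254, 221, 220 and 205 counts in QKO hearts and 293, 164, 296 and 210 counts in WT hearts. These ranges overlapped. Both genes were selected on this comparison and share reads, so the proportion is a description.

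Reads that fit both major heavy chains are a second source of doubt. Of the 75-base stretches of the longest Myh6 transcript, 15.5% occur in a Myh7 transcript, and of those of the longest Myh7 transcript 15.3% occur in a Myh6 transcript. None was shared with Myh7b or with 11 other heavy chain genes. The sources used here do not say how reads with several matches were counted, and a read pair can be placed by its other end.

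Other genes are annotated inside Myh7 and were not used to choose the members. Mir208b (chr14:54975700-54975776), whose hairpin lies in an intron of Myh7 on the same strand, had 28, 52, 43 and 58 counts in QKO hearts and 69, 20, 28 and 118 counts in WT hearts. On the CPM scale these were 0.715, 1.10, 0.839 and 0.490 in QKO hearts and 1.20, 0.605, 0.726 and 0.984 in WT hearts, and the groups overlapped. Its log2 difference was -0.23 (SE 0.28, edgeR adjusted p = 0.878).

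Mir208a (chr14:54949060-54949142), in an intron of Myh6, had 13, 23, 37 and 54 counts in QKO hearts and 11, 15, 12 and 51 counts in WT hearts. Its log2 difference was 0.53 (SE 0.33, edgeR adjusted p = 0.751). In CPM it was 0.332, 0.485, 0.722 and 0.456 in QKO hearts and 0.192, 0.454, 0.311 and 0.425 in WT hearts, which overlapped. Mir499, in an intron of Myh7b, summed to 15 counts over the QKO hearts and 16 over the WT hearts, too few to compare. Counts over a hairpin do not separate unspliced host RNA from microRNA precursor, and the mature microRNAs shown above were not measured.

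Gm29015 (chr14:54973029-54973359), an RNA gene on the other strand, shares 142 of its 207 exon bases (68.6%) with Myh7. It had 9.78, 6.46, 6.97 and 6.26 CPM in QKO hearts, against 1.85, 3.42, 3.14 and 2.43 CPM in WT hearts. It had a log2 difference of 1.47 (SE 0.18, edgeR adjusted p = 0.00250), with no overlap between the groups, and its reads cannot be told apart from those of Myh7. It passed in 16 of 17 alternatives and not in the fit of all 16 libraries (adjusted p = 0.558), the adjusted p running from 4.02e-12 to 0.558. Myh7 was chosen on this comparison, so through the shared bases this test of Gm29015 is not separate from that choice.

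Gm17428 (chr14:54976933-54977025), annotated as a 93-base coding gene on the plus strand within an intron of Myh7, was picked out after its values were seen. It had 0, 1, 4 and 4 counts in QKO hearts, against 8, 14, 10 and 28 counts in WT hearts. It was too low for the filter of the main test, and its summed ratio was 0.146, with an exact 95% interval of 0.0636 to 0.296 that covers counting error only.

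**Figure D2:**
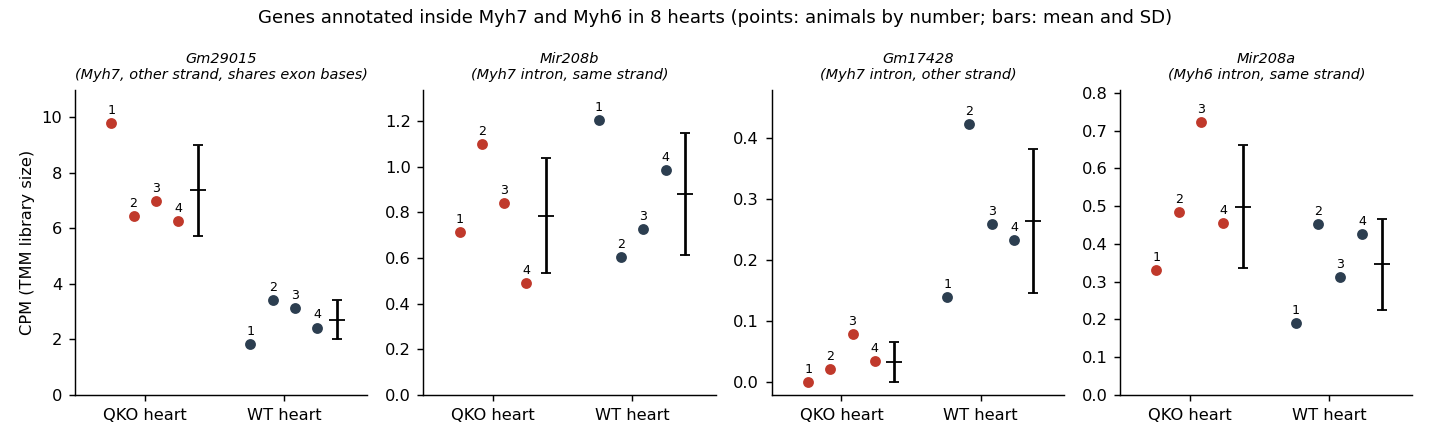
CPM of Gm29015, Mir208b, Gm17428 and Mir208a in each heart (points, numbered by animal; bars are mean and SD of 4 animals), QKO left and WT right. Gm29015 lies at 6.26 CPM or more in QKO hearts and at 3.42 CPM or less in WT hearts, and the ranges of Mir208b overlap.

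The proportion of slow to fast chain varied little among QKO hearts. Per kb of exon, Myh7 made up 6.21%, 6.14%, 6.33% and 6.35% of Myh6 and Myh7 in QKO hearts, against 1.44%, 1.95%, 1.55% and 1.98% in WT hearts. The spread among QKO hearts (SD 0.100) was smaller than among WT hearts (SD 0.277). In plain counts, where the longer Myh7 model weighs more, the single-heart exact 95% intervals ran from 7.63% to 8.06% over the QKO hearts and from 1.79% to 2.57% over the WT hearts. Counting error, which is all these intervals cover, was small beside the difference between genotypes, on which Myh7 was chosen. Among WT hearts the intervals of hearts 1 and 2 did not overlap, so animals differed by more than counting error.

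In liver the same share was read from few counts. QKO livers held 31, 67, 25 and 59 Myh7 counts beside 312, 292, 332 and 719 Myh6 counts, and WT livers 8, 1, 6 and 313 beside 431, 282, 231 and 652. Myh7 was 9.04%, 18.7%, 7.003% and 7.58% of both in QKO livers, against 1.82%, 0.353%, 2.53% and 32.4% in WT livers. Leaving aside QKO liver 2 and WT liver 4, the livers with skeletal muscle transcripts, the exact 95% interval of each liver held the share of the same animal's heart, except for animal WT 2, with 2.48% in its heart against 0.00895% to 1.95% in its liver.

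The exact 95% interval was 5.82% to 9.67% in QKO liver 4 and 0.790% to 3.56% in WT liver 1. Beside these values, the summed cardiomyocyte markers were 20170 or more per 1 M protein-coding counts in every heart, against 13.4 to 31.6 in QKO livers and 13.1 to 47.5 in WT livers, with none of the 8 markers at 0 throughout a liver group. Where the heavy chain reads of the liver libraries came from was not tested.

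**Figure D3:**
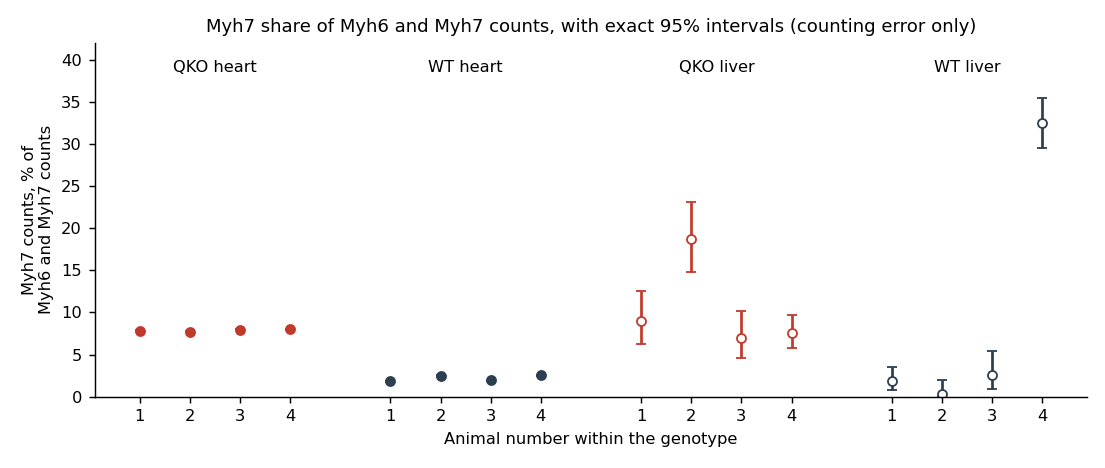
Myh7 counts as a percentage of Myh6 and Myh7 counts in each of the 16 libraries, with exact 95% intervals that cover counting error only. QKO hearts lie at 7.73% to 7.99% and WT hearts at 1.84% to 2.53%, while QKO liver 2 and WT liver 4 stand above the other livers.

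Tested across all genes, no member was called between QKO and WT livers. In this comparison 15 of 17738 genes tested (0.0846%) passed, and 0 of the 6 members that could be tested, with none at an unadjusted p under 0.05. Mhrt and Myl7 were below the filter. Myh7 had a log2 difference of -1.10 (SE 1.17, edgeR adjusted p = 0.9997), which was 3.04 without WT liver 4 (adjusted p = 0.251) and 2.83 without that library and QKO liver 2 (adjusted p = 0.353). Its adjusted p ran from 0.251 to 1.0 over the alternatives.

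Myl2 and Myl3 changed sign in the same way, as WT liver 4 held 17.45 CPM of Myl2 against 1.29 to 3.32 CPM in the other WT livers. Myl4, at a log2 difference of 0.54 (SE 0.34, adjusted p = 0.9997), kept its sign over the alternatives and passed in none.

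Tissue set the level of the members far more than genotype. Between WT heart and WT liver, 13202 of 18204 genes tested (72.5%) passed and 35.6% were higher in heart, with 7 of the 8 members among them. The filter keeps a gene that only hearts express, so the count of members is not a result: Mhrt had 1635, 667, 1053 and 2937 counts in WT hearts, against 1, 1, 1 and 44 counts in WT livers, and entered the test through the hearts. Myl7 did not enter it. The log2 difference was 10.1 for Myh6 (SE 0.64), 9.54 for Myl3 (SE 0.81) and 9.33 for Myl2 (SE 1.00), with edgeR adjusted p-values of 9.57e-08, 1.08e-06 and 7.41e-06. Myh7 was 6.89 higher (SE 1.30), Myh7b 5.98 (SE 0.24) and Myl4 4.00 (SE 0.95, adjusted p = 0.00285). Without WT liver 4 the difference of Myh7 was 11.1.

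Per kb of exon, where genes can be compared with each other, the order of the members was the same in QKO and WT hearts. In QKO hearts Myl2 averaged 1072 ± 73.6 CPM per kb, Myh6 883 ± 58.4, Myl3 455 ± 37.2, Mhrt 94.5 ± 14.4 and Myh7 58.9 ± 3.52 (SD, n = 4). In WT hearts these levels were 1022 ± 63.4, 711 ± 46.5, 418 ± 32.3, 20.7 ± 3.04 and 12.5 ± 1.72 CPM per kb. The ranges of these neighbours in the order did not overlap in either genotype, but those of Mhrt and Myh7 stood apart only with shared reads left in. With the estimated shared reads taken off, Mhrt was at 84.8, 61.6, 61.5 and 56.2 CPM per kb in QKO hearts, where Myh7 was at 64.15, 56.85, 56.92 and 57.69. In WT hearts Mhrt was then at 18.0, 9.72, 17.3 and 13.6 CPM per kb and Myh7 at 11.3, 14.3, 10.7 and 13.6, so the ranges of both genes overlapped in both genotypes. Myl7, Myh7b and Myl4 followed, and the ranges of Myl7 and Myh7b overlapped in both genotypes, as did those of Myh7 and Myl7 in WT hearts.

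Both ventricular light chain genes had overlapping levels in the genotypes. Myl2, the regulatory light chain of ventricle, had 1936, 2115, 2036 and 2275 CPM in QKO hearts, against 1917, 2177, 1927 and 1949 CPM in WT hearts. Myl3, the essential light chain of ventricle and slow muscle, had 853, 930.1, 905 and 1034 CPM in QKO hearts, against 849.9, 943, 783 and 838 CPM in WT hearts. The log2 differences were 0.07 for Myl2 (SE 0.10) and 0.12 for Myl3 (SE 0.09). Per kb, both light chains together were 1.63 ± 0.197 times the level of both heavy chains in QKO hearts and 1.99 ± 0.158 times in WT hearts, and these ratios overlapped.

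The atrial light chains varied most among animals, and not by genotype. Myl7, the regulatory light chain of atrium, had 305, 117, 5 and 5 counts in QKO hearts 1 to 4, against 10, 0, 431 and 230 counts in WT hearts 1 to 4. Myl4, the essential light chain of atrium, had 298, 157, 23 and 44 counts in QKO hearts, against 13, 14, 303 and 226 counts in WT hearts. Both were high in QKO hearts 1 and 2 and WT hearts 3 and 4, and low in the other 4 hearts.

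In CPM, Myl7 was 7.79, 2.47, 0.0976 and 0.0422 in QKO hearts and 0.174, 0, 11.2 and 1.92 in WT hearts. The ratio of means was 58.9 in animals 1 and 2 of the genotypes and 0.0107 in animals 3 and 4. Over all animals the log2 difference was -0.43 (SE 1.21) for Myl7 and 0.13 (SE 0.94) for Myl4, which describes no common direction. Even the highest hearts held little, as Myl7 reached at most 1.88% of Myl2 and Myl7 per kb (WT heart 3).

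Other atrial genes were read beside them. Sln, an inhibitor of the calcium pump that is largely atrial in the mouse, had 2.19, 0.338, 0 and 0.0506 CPM in QKO hearts and 0.0174, 0.0302, 2.02 and 0.367 CPM in WT hearts, which follows the same hearts. Mybphl, a myosin binding protein of atrium, was highest in QKO heart 1 with 0.255 CPM and in WT heart 3 with 0.596 CPM. Dkk3 was highest in the same hearts, with 2.45 and 6.43 CPM. The rest of the atrial markers did not follow these hearts. Kcnj3 and Stard10 were highest among QKO hearts in QKO heart 1 but lowest among WT hearts in WT heart 3, with 18.5 and 3.01 CPM. Gja5 was highest in QKO heart 4 and WT heart 2, and Bmp10 was at 0 CPM in QKO heart 1 and WT heart 3. The 7 atrial markers summed to 107 to 142 in QKO hearts and 104 to 131 in WT hearts, per 1 M protein-coding counts, a sum that is mostly Kcnj3, and none of them was at 0 throughout a heart group. The 4 ventricular markers summed to 148 to 188 in QKO hearts and 141 to 179 in WT hearts.

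Bulk RNA cannot tell fewer cells of a kind from less RNA per cell, and how much atrium each piece held is not given. QKO heart 1, the highest QKO heart in Myl7, Myl4 and Sln, was also the highest in Myh7, with 552.7 CPM. QKO hearts 2 and 3, with Myl7 levels of 2.47 and 0.0976 CPM, had Myh7 levels of 489.8 and 490.4 CPM, and WT heart 3, the highest WT heart in Myl7, was the lowest in Myh7, with 92.4 CPM. The part of atrial tissue in the Myh7 levels was not tested. Skeletal muscle of the slow kind also uses Myh7, and the 8 skeletal markers summed to 1688 to 2505 in QKO hearts and 1382 to 1869 in WT hearts, per 1 M protein-coding counts, mostly through Ckm and Acta1, which heart muscle uses too. None of them was at 0 throughout a heart group, and their part in the Myh7 difference was not tested. The other 6 fast skeletal markers of the list each had at most 0.312 CPM in QKO hearts and 0.225 CPM in WT hearts. Myl1, a fast skeletal light chain outside that list, was at 4.999 to 8.30 CPM in QKO hearts and 2.83 to 4.63 CPM in WT hearts. Of slow skeletal troponins, Tnni1 had 0.0255, 0.211, 0.0195 and 0.0844 CPM in QKO hearts and 0.0523, 0.0302, 0.0519 and 0.05001 CPM in WT hearts, and Tnnt1 1.076 to 2.30 CPM in QKO hearts and 1.17 to 1.81 CPM in WT hearts, both overlapping.

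**Figure D4:**
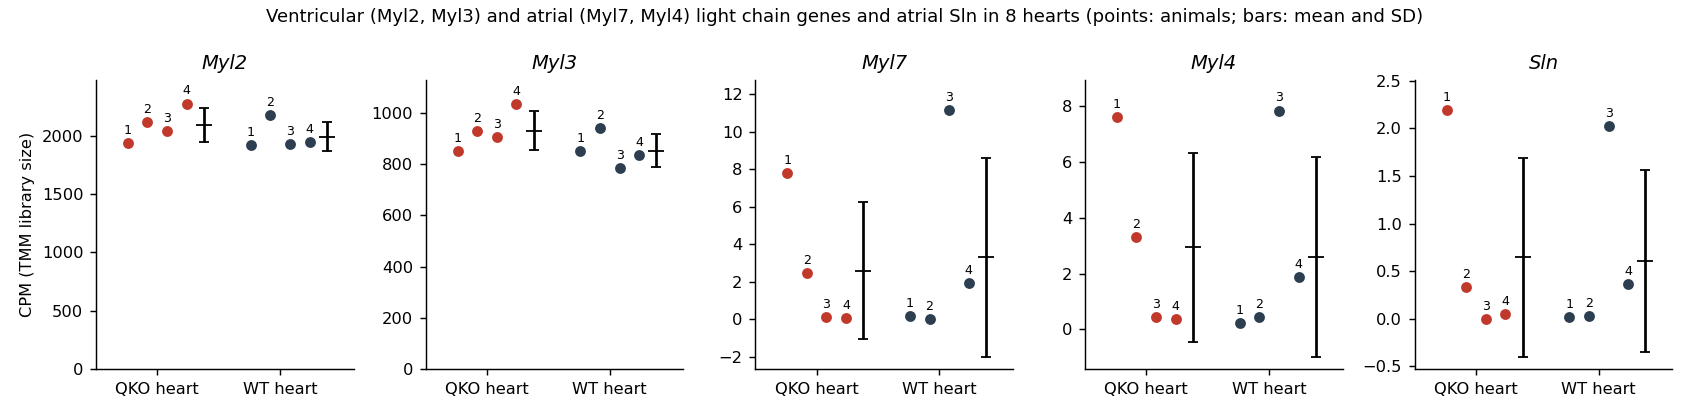
CPM of the ventricular light chain genes Myl2 and Myl3, the atrial light chain genes Myl7 and Myl4, and atrial Sln in each heart (points numbered by animal; bars are mean and SD of 4 animals), QKO left and WT right. Myl2 and Myl3 overlap between genotypes, and Myl7, Myl4 and Sln are highest in QKO heart 1 and WT heart 3.

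Genes that work with the members were counted in the heart comparison by list, against the 0.165% of all genes that passed and a median log2 difference over all genes of -0.001. In none of the 8 lists did a gene pass edgeR's quasi-likelihood test with Benjamini-Hochberg adjustment, and each list is given below with its count at an unadjusted p under 0.05, where 1220 of the 16974 genes stood.

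Of 11 other myosin heavy chain genes 4 could be tested, 1 had an unadjusted p under 0.05, and the median was -0.04. Myh11, the smooth muscle heavy chain, had 2.48, 1.90, 2.28 and 2.06 CPM in QKO hearts, against 4.98, 4.02, 6.53 and 2.92 CPM in WT hearts. Every QKO heart was below every WT heart, with a log2 difference of -1.07 (SE 0.21) that did not pass (adjusted p = 0.0837). It passed in 5 of 18 alternatives, among them DESeq2 (adjusted p = 0.000168) and without WT heart 4 (0.00497), over which the adjusted p ran from 5.17e-05 to 1.0. Myh10, a non-muscle heavy chain, had -0.06 (SE 0.11, adjusted p = 0.929).

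Of 8 other light chain genes 6 could be tested, 1 was under 0.05 unadjusted, and the median was 0.07. Myl1, the essential light chain of fast skeletal muscle, had 5.13, 4.999, 7.79 and 8.30 CPM in QKO hearts, against 4.63, 3.72, 2.83 and 4.37 CPM in WT hearts. These ranges did not overlap, and the log2 difference of 0.75 (SE 0.18) did not pass (adjusted p = 0.291). It passed with DESeq2 (0.0165) and without a filter, and its adjusted p ran from 0.00145 to 1.0 over the alternatives. Myl6b had 0.59 (SE 0.35, adjusted p = 0.738).

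Of 19 kinases, phosphatase subunits, binding proteins and chaperones of myosin 16 could be tested, 3 were under 0.05 unadjusted, and the median was 0.04. The smallest p-values were those of the LIM proteins Fhl2, with 0.24 (SE 0.09), and Fhl1, with 0.17 (SE 0.07), both at an adjusted p of 0.660. DESeq2 and limma-voom called 0 genes of this list. Mylk2, a myosin light chain kinase too low for the filter, had a ratio of means of 17.7, with no overlap between the heart groups. It was picked out after its values were seen and was not tested. Mybpc1 and Mybphl, also below the filter, had ratios of 1.19 and 0.473, with overlap.

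Thyroid hormone signalling, which represses Myh7 and activates Myh6, had 17 of 18 genes tested, 2 under 0.05 unadjusted and a median of -0.09. Hr, a nuclear receptor corepressor known to be induced by thyroid hormone in rat brain, had 6.56, 7.24, 7.84 and 7.41 CPM in QKO hearts, against 5.23, 3.99, 5.65 and 4.23 CPM in WT hearts. Its groups did not overlap, and the log2 difference of 0.61 (SE 0.11) did not pass (adjusted p = 0.0625). It passed in 5 of 18 alternatives, among them DESeq2 (adjusted p = 0.000711), limma-voom (0.0417), the replicate block (0.0214) and without WT heart 3 (0.0410), with adjusted p-values of 0.000711 to 1.0 over all of them. Dio2, which makes active thyroid hormone, had -0.88 (SE 0.31, adjusted p = 0.655).

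All 34 transcription and chromatin regulators of the heavy chain genes could be tested. Of these 2 were under 0.05 unadjusted and the median was -0.04. Nfatc3, a calcineurin-activated factor, had -0.20 (SE 0.07) and Gata4, a cardiac GATA factor, -0.21 (SE 0.08), both at an adjusted p of 0.660. The list holds Tead1 to Tead4, whose motif was marked above, and Smarca4, and DESeq2 and limma-voom called 0 of its genes.

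Of the fetal and stress genes, which often rise with Myh7 in overloaded hearts, 18 of 20 could be tested, 5 were under 0.05 unadjusted and the median was 0.08. Acta1, skeletal alpha actin, had 42.7, 38.6, 53.8 and 84.0 CPM in QKO hearts, against 26.2, 19.5, 42.8 and 19.2 CPM in WT hearts. The ranges overlapped through WT heart 3, and the log2 difference of 1.04 (SE 0.26) did not pass (adjusted p = 0.314). It passed in 1 of 18 alternatives, without a filter, and its adjusted p ran from 3.71e-05 to 1.0. Hcn4, a pacemaker channel, had 0.45 (SE 0.16, adjusted p = 0.655). Acta2 was also higher in QKO hearts, at 0.82 (SE 0.30). Timp1 and Postn, the rest of the 5, were lower, at -1.04 (SE 0.37) and -0.47 (SE 0.18). These last genes and Acta2 had an adjusted p of 0.660. Of the 18 genes tested, 12 had a log2 difference above 0. Without a filter Acta2 passed too, while DESeq2 and limma-voom called 0 genes here.

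Of 36 other sarcomere genes 35 could be tested, 2 were under 0.05 unadjusted, and 28 had a log2 difference above 0, with a median of 0.06. Actc1, cardiac actin, had 0.25 (SE 0.11, adjusted p = 0.670) and Mybpc3, cardiac myosin binding protein C, 0.23 (SE 0.10, adjusted p = 0.672). Of 11 chamber markers 9 could be tested, 1 was under 0.05 unadjusted and the median was 0.05. Kcnip2, a ventricular potassium channel subunit, had 0.14 (SE 0.06, adjusted p = 0.692) and Gja5, a connexin of atrium and conduction tissue, 0.24 (SE 0.15, adjusted p = 0.752). DESeq2 and limma-voom called 0 genes of either list.

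The members on chromosome 14 share it with the targeted gene Msra, which lies 9.13 Mb beyond the start of Myh7. Chromosome 14 held 3.19% of the genes tested in heart and 13 of the 28 called (46.4%), and in liver 2 of the 15 called. The 13 include Myh7 and Mhrt, which were chosen on this comparison, Gm29015 and Msra itself. Their share was thus partly set by that choice and by counting a targeted gene. Within 1 Mb of Myh7, leaving out the members Myh7, Mhrt and Myh6, 64 genes were tested in heart and 1 passed. This was Gm29015, which shares exon bases with Myh7. At an unadjusted p under 0.05 there were 17 of these 64, against 7.19% of all genes tested in heart.

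Their placing was looked at after the values were seen. In heart they were 14 of 29 genes on the side of Myh6, away from Msra, and 3 of 35 on the side toward Msra. In liver, again without members, they were 11 of 27 and 2 of 35, against 3.29% of all genes tested there. In that tissue 2 of 64 genes within 1 Mb passed. Cebpe, a myeloid transcription factor, had 1, 0, 0 and 0 counts in QKO livers, against 45, 195, 51 and 37 counts in WT livers (edgeR adjusted p = 0.00238), and Mir686 had a log2 difference of -1.07 (SE 0.14, adjusted p = 0.0128). Mir686 lost its call in 7 of 17 alternatives, namely the replicate block (adjusted p = 0.0758) and the fits without QKO liver 1, 2 or 4, WT liver 1 or 2, or both WT liver 4 and QKO liver 2, and its adjusted p ran from 2.64e-07 to 0.108. The centre of Mir686 lay at -377.9 kb from the Myh7 start site, beside that of Psmb5 at -378.6 kb. Psmb5 had a log2 difference of -0.76 in liver (SE 0.13, edgeR adjusted p = 0.0861). Whether Mir686 counts hold reads of Psmb5 was not tested. Cebpe was at 0 counts in all 8 hearts.

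**Figure D5:**
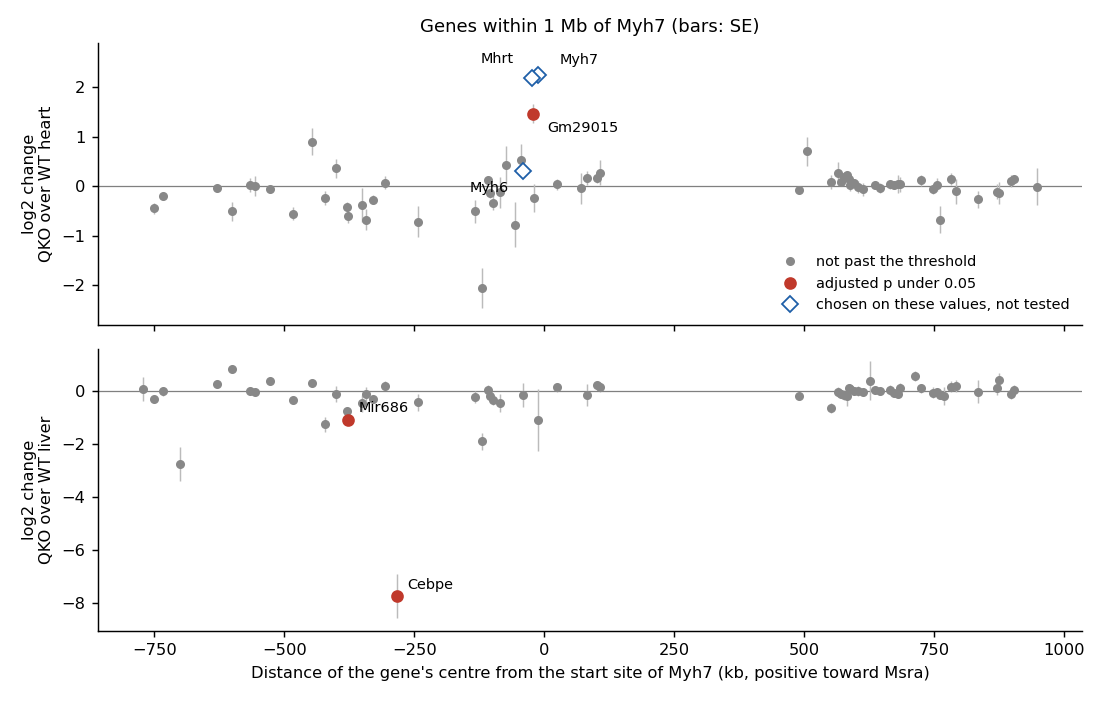
Log2 difference QKO over WT of each gene tested within 1 Mb of Myh7, against the distance of its centre from the Myh7 start site in kb, in heart (top) and liver (bottom), with SE bars. Red points passed an adjusted p of 0.05, which in heart is Gm29015, a gene that shares exon bases with Myh7, and in liver are Cebpe and Mir686. Open diamonds in heart are Myh6, Myh7 and Mhrt, whose values there chose them.

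Among 11878 genes with a mean of 1 CPM or more in heart, the 5 most like Myh7 over the 8 hearts, by Pearson's r of log2(CPM + 0.5), were Gdpd3 (r = 0.9945), Gm3375 (0.988), Gm9967 (0.987), Tln2 (0.976) and Stub1 (0.974). The hearts fall into 2 genotypes, so these values mostly rank how cleanly a gene separates them, and they carry no test. By the same measure Mhrt had 0.9725, Myh6 0.890 and the other members 0.565 or less. Gdpd3, Gm3375 and Gm9967 lie on chromosome 7, Tln2 on chromosome 9 and Stub1 on chromosome 17. Gdpd3, a lysophospholipase D, averaged 5.69 ± 0.747 CPM in QKO hearts and 0.371 ± 0.133 CPM in WT hearts, and Tln2, a talin, 50.7 ± 0.380 and 44.4 ± 1.01 CPM (SD, n = 4 each).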

How the data were processed

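Heart and liver of 8 mice were measured by RNA sequencing. The authors deposited raw counts per gene, whole numbers for 48709 Ensembl identifiers. Per the submitters' processing notes, HISAT2 and featureCounts were among the tools, with cutadapt, FastQC, CASAVA, bcl2fastq and limma, and the build was mm10. Annotation release and strand setting were not given in the sources used here. All 16 columns were assigned to a library by title, and 0 were left over. Symbols, positions and exon lengths came from GENCODE M21 (GRCm38), which matched 48349 identifiers and not the other 360.

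Each tissue was fitted apart with edgeR 4.0.16 (R 4.3.3): TMM scaling, filterByExpr by group, quasi-likelihood F test, Benjamini-Hochberg adjustment over all genes tested, threshold 0.05. SE is the log2 change divided by the square root of F. The fit was run on simulated counts with the same dispersion for every gene, which do not give the error rate in these data. Intervals cover counting error only, and p-values measure the spread between these animals. No libraries were copies. Heart and liver of 1 animal share its number, so the tissue test was repeated with animals as blocks, which changed no call of a member. The same number in QKO and WT pairs nothing by the labels, and correlations of same-numbered hearts were 0.0543 to 0.424.

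Members and lists were chosen with earlier results of these data known. Genes were named as members, as list or neighbour genes past the threshold (else the 2 with the smallest p), as intron microRNA genes, by likeness to Myh7 or as targets. Alternatives were DESeq2 1.42.0, limma-voom 3.58.1, RLE and upper-quartile scaling, other filters, coding genes with Mhrt alone, the replicate block, all 16 libraries in 1 fit, libraries left out, and other lengths for ratios.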

Additional observations from a re-analysis of the deposited data

Results flagged for a closer look

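Over 54 groups of 4 values of the members and their ratios, a single animal stood far from the other 3 in 6, and chance alone gives this in about 1 of 20 groups. Myh7 had 552.7 CPM in QKO heart 1, against 489.8 to 497.1 CPM in the other QKO hearts, and Mhrt 140.5 CPM in the same heart, against 102.0 to 108.1 CPM. In WT liver 4, the library with skeletal muscle transcripts, Myh7 had 6.63 CPM against 0.0149 to 0.223 CPM in the other WT livers, Mhrt 0.932 CPM against 0.0149 to 0.0279 CPM, and Myl2 17.45 CPM against 1.29 to 3.32 CPM. Myl2 had 2177 CPM in WT heart 2, against 1917 to 1949 CPM in the other WT hearts. The cause of these differences was not tested.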

How the results depend on the processing

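In heart the log2 differences of Myh6, Myh7, Mhrt, Myh7b, Myl2 and Myl3 moved by less than the spread between animals in all 18 alternatives. They ran from 2.18 to 2.31 for Myh7, 2.08 to 2.26 for Mhrt and 0.26 to 0.36 for Myh6. Those of Myl4 (-0.98 to 1.53) and Myl7 (-2.10 to 1.51) changed sign with the animal left out. The 28 genes called in heart were 64 with DESeq2, 102 without a filter, 50 with the replicate block, 16 with all 16 libraries in 1 fit and 18 to 25 without 1 library. The 15 in liver were 50 with DESeq2, 9 among coding genes with Mhrt, 44 with all 16 libraries and 12 to 19 without 1 library. The replicate numbers do not pair the samples by the labels, although each QKO heart correlated best with the WT heart of its own number.

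Among the lists, DESeq2, no filter and the replicate block each called 1 other heavy chain gene (Myh11), as did 1 fit without a library (0 to 1) and the fit without both hearts 4 (1). DESeq2 and no filter called 1 other light chain gene (Myl1). DESeq2, limma-voom, no filter, the replicate block and 1 fit without a library (0 to 1) called 1 thyroid hormone gene (Hr). Without a filter 2 fetal and stress genes passed (Acta1 and Acta2). Within 1 Mb of Myh7, the 3 called in heart were 7 with DESeq2, 9 without a filter and 1 with all 16 libraries (Ppp1r3e, with Myh7 and Mhrt no longer past the threshold). The 2 in liver were 7 with DESeq2, 6 with all 16 libraries, 1 to 3 without 1 library, and 1 with the 1 CPM filter, coding genes with Mhrt, the replicate block, or without WT liver 4 and QKO liver 2, an alternative added after the data were seen.

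In liver, Myl4 (0.54) kept its direction, at 0.40 to 0.67, and the other 5 members tested did not. Myh7 (-1.10) was 1.98 with limma-voom, 1.22 with the replicate block, -1.52 to 3.04 without 1 library and 2.83 without WT liver 4 and QKO liver 2. Myh6 (-0.15) was 0.0695 with limma-voom, -0.43 to 0.21 and 0.37 under the last 2 of these. Myl2 ran from -1.34 to 0.56 without 1 library and was 0.59 without both livers, Myl3 was 0.0041 with limma-voom, -0.88 to 0.61 and 0.75, and Myh7b ran from -0.0879 to 0.33. Mir208b in heart was 0.0336 without both hearts 4, and Myh10 ran from -0.13 to 0.0197 without 1 library.

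With the longest transcript as length, the Myh7 share was 7.74% in QKO hearts and 2.16% in WT hearts, and in plain counts 7.87% and 2.20%. Mhrt per Myh7 was 1.598 in QKO hearts and 1.71 in WT hearts per kb, 0.225 and 0.241 in plain counts, and 1.12 and 1.22 with estimated shared reads taken off, which was also added after the data were seen. Apart from the effect of fewer libraries or genes, the cause of these moves was not tested.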
